A study of Homo sapiens with 6 samples.

Results

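The anaphase-promoting complex and its coactivators were followed as 10 transcripts, CDC20, FZR1, ANAPC1, ANAPC2, ANAPC5, ANAPC7, ANAPC11, CDC16, CDC23 and CDC27, which were taken by their gene symbols from the 37879 targets of an expression array. The RNA on the arrays came from HEK293T, an established human embryonic kidney cell line, and had been recovered with an anti-FLAG antibody. In the 3 control IPs the cells carried an empty vector, and in the 3 Stau1 IPs they carried a plasmid for Stau155-FLAG, a tagged isoform of the RNA-binding protein Staufen1. Both groups were held in prometaphase with nocodazole, which blocks microtubules. The labels give a dose of 50 ng/ml and a time of 15 h, while the methods of the study give a longer time, and cells at other stages of the cycle were not compared. The tagged protein came from a plasmid and not from the cells' own gene. The study also put total RNA of such cells on arrays and reported little change in the transcriptome with Stau155-FLAG. That RNA was not analysed here. For single transcripts, more transcript in the cells and more held by Stau1 therefore cannot be told apart from the IP arrays.

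The complex is a ubiquitin ligase that marks proteins for the proteasome in mitosis and early G1. CDC20 and FZR1, also called Cdh1, are its coactivators, which bring substrates to it. CDC20 acts in mitosis and is held back by the spindle checkpoint as long as chromosomes are not attached, the state that nocodazole maintains, and FZR1 takes over as cells leave mitosis. The file places CDC20 on chromosome 1, FZR1 on 19, ANAPC2 on 9, ANAPC5 and ANAPC7 on 12, CDC16 on 13, CDC23 on 5 and CDC27 on 17, and names no chromosome for ANAPC1 and ANAPC11. The comparison asks whether the transcripts of this ligase came down with Stau1 in prometaphase cells more than with the antibody alone.

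A signal is the mean brightness of the beads of a target as deposited, in arbitrary intensity units, and signals of different targets were not set against each other. A target was taken as detected where its deposited detection p, set against the negative controls of the array, was under 0.05. For targets of several probes this p did not simply follow the combined signal. STAU1, read by at least 3 probes, had a detection p of 0.0542 at a signal of 2499 on control IP 1. For such targets, not detected does not mean a signal at the negative-control level. Between 11635 and 13054 targets were detected per array, with a median signal between 87.9 and 102. With 3 arrays per group the precision is limited, and nothing in the labels says that the replicates came from separate cultures, so the tests measure the spread between these arrays. All 7 markers listed for this line and for mitosis (KRT8, KRT18, VIM, CDH2, NEFM, CCNB1 and PLK1) were detected on every array. Of 6 markers of leukocytes, hepatocytes and fibroblasts, 5 were detected on none, and COL1A1 was detected on 5 arrays with signals between 103.6 and 152.

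The arrays did not group by their labels. Correlations were computed over the 9884 targets that all 6 arrays detected. The array labelled control IP 2 had a Pearson correlation of 0.983 with Stau1 IP 1 and 0.984 with Stau1 IP 3, above its 0.977 with control IP 1 and 0.982 with control IP 3, and its lowest value was the 0.954 with Stau1 IP 2. The array labelled Stau1 IP 2 had a mean of 0.964 with the control IPs and 0.942 with the other Stau1 IPs, while Stau1 IP 1 and 3 had 0.996 with each other. The labels of these arrays may be exchanged, which was not tested, and every difference over all 6 arrays depends on them. STAU1 itself had signals of 2499, 3246 and 2758 on control IP 1, 2 and 3 and of 2845, 1857 and 3130 on Stau1 IP 1, 2 and 3. Its groups overlapped, so it does not check the labels. Arrays are therefore given singly, and differences are given for all 6 arrays as labelled and without both arrays numbered 2, a comparison of 2 against 2 arrays. Since those arrays were set aside for how they correlated, the values without them describe the other 4 arrays and are no independent test.

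The 10 transcripts differed little between the IPs as labelled. None passed the threshold of the methods, a fold above 2.5 with an unadjusted p under 0.05, in either direction, where 1 target in all was higher (0.00264%) and 0 were lower (0%). From its IP arrays of prometaphase cells the study reported far more transcripts enriched at that fold. The arrays as labelled did not return such a list here, and the 10 transcripts were not looked up in it. At an unadjusted p under 0.05 alone, 0 of the 10 were higher and 1, CDC16, was lower, against 3.88% and 5.01% of all targets. On the normalized scale CDC16 was also the 1 transcript whose 3 Stau1 IP arrays all lay below its 3 control IP arrays, and none had its arrays apart in the other direction, against 7.81% and 6.68% of all targets. After Benjamini-Hochberg adjustment of the limma p-values over all targets, none of the 10 was called.
Their median log2 difference, Stau1 IP minus control IP, was 0.05, with 6 of 10 above 0, and that of all targets was 0.00. On a log2 scale the differences ran from -0.33 for ANAPC7 to 0.27 for ANAPC1.

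**Figure D1:**
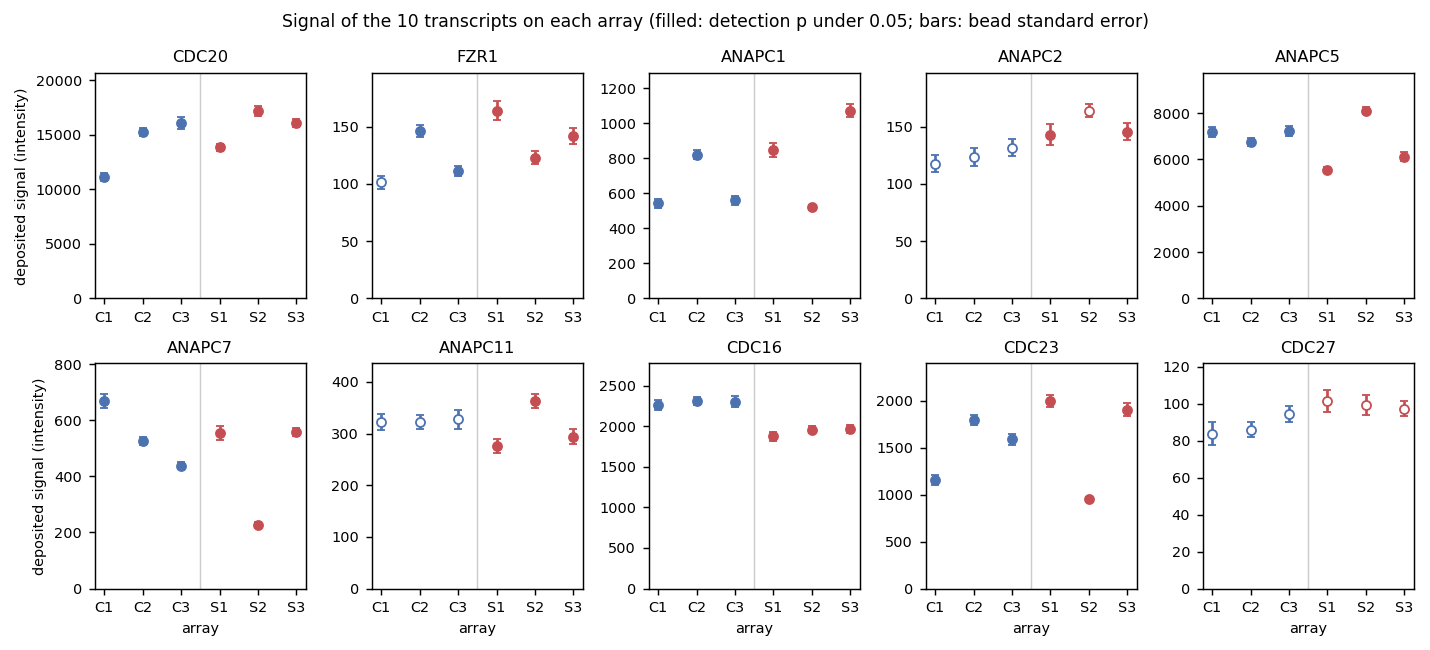
Deposited signal (intensity, linear axis from 0) of each of the 10 transcripts on control IP 1 to 3 (C1 to C3, blue) and Stau1 IP 1 to 3 (S1 to S3, red), with the standard error between beads as bars and open symbols where the detection p was not under 0.05. CDC20, ANAPC5, ANAPC7, ANAPC1, CDC16 and CDC23 were detected on all 6 arrays and CDC27 on none. Of those detected on all 6 arrays, only CDC16 has groups that do not overlap. The dim ANAPC2 and CDC27 have all deposited Stau1 IP signals above all control IP signals, which does not hold on the normalized scale.

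Among the coactivators, CDC20 was detected on every array. Its signal was 11104, 15269 and 16062 on control IP 1, 2 and 3 and 13849, 17202 and 16067 on Stau1 IP 1, 2 and 3. Control IP 1 was the lowest array, and the other 5, with the groups mixed, lay between 13849 and 17202. The normalized log2 level was 13.85 ± 0.30 (SD, n = 3) for the control IPs, against 14.07 ± 0.04 (SD, n = 3) for the Stau1 IPs. The difference of 0.22 (SE 0.15) had a 95% interval from -0.16 to 0.59 and an adjusted p of 0.797. Without the arrays numbered 2 it was 0.23 (SE 0.21, adjusted p = 0.765). The size turned on other choices, at 0.05 without control IP 1 or under median centring and 0.35 without control IP 3.

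FZR1 lay close to background. Its signal was 101, 146 and 111 in control IPs and 164, 123 and 142 in Stau1 IPs, and it was detected on every array but control IP 1, where the detection p was 0.0646. The groups overlapped through control IP 2, which stood above Stau1 IP 2 and Stau1 IP 3. The log2 difference of 0.16 (SE 0.10, adjusted p = 0.755) had an interval from -0.09 to 0.42. It was 0.29 (SE 0.09) without the arrays numbered 2, with an adjusted p of 0.243.

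The subunits of the platform and the catalytic core come next. ANAPC1 is the large scaffold of the platform, ANAPC2 a cullin-like subunit, ANAPC11 the RING subunit that binds the ubiquitin-conjugating enzyme, and ANAPC5 a subunit that joins the platform to the arm of the complex. ANAPC1 had a signal of 542, 820 and 559 on control IP 1, 2 and 3 and of 848, 519 and 1071 on Stau1 IP 1, 2 and 3. Control IP 2 stood with Stau1 IP 1 and 3, and Stau1 IP 2 stood with control IP 1 and 3. The log2 difference over all 6 arrays was 0.27 (SE 0.16, adjusted p = 0.738). Without the arrays numbered 2 it was 0.51 (SE 0.08) with an adjusted p of 0.0499, just under 0.05.
The array also carries targets that its file describes as similar to ANAPC1, so the reading of ANAPC1 is uncertain. Of 10 further targets that the file defines as similar to a subunit of the complex, 3 were detected on all 6 arrays, and these are all described as similar to ANAPC1. One of them, LOC652324, had signals of 318, 505 and 329 in control IPs and of 496, 316 and 671 in Stau1 IPs, with the same arrays high as for ANAPC1. How alike their probes are was not tested.

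ANAPC5 ran the other way. Its signal was 7183, 6747 and 7220 in control IPs and 5551, 8102 and 6121 in Stau1 IPs. Stau1 IP 1 and 3 were the lowest arrays and Stau1 IP 2 the highest. The log2 difference was -0.11 (SE 0.14, adjusted p = 0.913) over all 6 arrays and -0.33 (SE 0.04, adjusted p = 0.0258) without the arrays numbered 2.
The catalytic subunits ANAPC2 and ANAPC11, each read by several probes, did not count as detected on any control IP array. ANAPC2 had signals of 118, 123 and 132 there and of 143, 164 and 146 in Stau1 IPs, where arrays 1 and 3 counted as detected. The brightest array, Stau1 IP 2, had a detection p of 0.275 and did not. The log2 difference of 0.22 (SE 0.11, adjusted p = 0.680) had an interval from -0.06 to 0.49. It was 0.06 (SE 0.06, adjusted p = 0.795) without the arrays numbered 2. On the normalized log2 scale control IP 2 was the lowest array, at 7.53, and Stau1 IP 2 the highest, at 8.06.
ANAPC11, which is read by at least 5 probes, had signals of 322, 322 and 327 in control IPs and of 275, 363 and 294 in Stau1 IPs, where all 3 arrays counted as detected. The detection p of the control arrays lay between 0.112 and 0.129 although their signals were well above the negative-control level of 77.6 to 89.6, and lay inside the range of the Stau1 IPs. Since the control IPs did not count as detected and were no dimmer, no fold is given. The adjusted p was 0.978 over all 6 arrays and 0.0234, lower in Stau1 IPs, without the arrays numbered 2.

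The arm of the complex is built from subunits with repeats of the TPR type, CDC16, CDC23, CDC27 and ANAPC7, to which the coactivators dock. CDC16 had a signal of 2259, 2310 and 2298 on control IP 1, 2 and 3 and of 1876, 1957 and 1965 on Stau1 IP 1, 2 and 3. The standard error between beads was between 2.16% and 2.95% of the signal, and all Stau1 IP arrays lay below all control IP arrays. The normalized log2 level was 11.32 ± 0.10 (SD, n = 3) for the control IPs, against 11.06 ± 0.11 (SD, n = 3) for the Stau1 IPs. On that scale the groups were nearest at control IP 2, with 11.21, and Stau1 IP 2, with 11.18. Their separation thus depends on the labels of these arrays. The difference was -0.26 (SE 0.08), with a 95% interval from -0.46 to -0.07, an unadjusted limma p of 0.0153 and an adjusted p of 0.398. That unadjusted p rose to 0.262 with an eBayes trend, 0.0618 with the replicate block and 0.0513 and 0.0514 without control IP 1 or 3. The difference was -0.38 (SE 0.04, adjusted p = 0.0285) without the arrays numbered 2.

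In CDC23 the array labelled Stau1 IP 2 stood apart from its group. Its signal was 1157, 1793 and 1591 in control IPs and 1998, 954 and 1906 in Stau1 IPs, so that Stau1 IP 1 and 3 were the highest arrays and Stau1 IP 2 the lowest. The log2 difference of 0.03 (SE 0.24, adjusted p = 0.988) changed its sign with the scaling, to -0.05 under median centring, and was 0.33 (SE 0.15, adjusted p = 0.409) without the arrays numbered 2.
ANAPC7 had signals of 669, 527 and 439 in control IPs and of 554, 228 and 559 in Stau1 IPs. Stau1 IP 2 was the lowest array by far and the other Stau1 IPs lay among the control IPs. The log2 difference was -0.33 (SE 0.28, adjusted p = 0.836), and -0.19 (SE 0.22, adjusted p = 0.828) without the arrays numbered 2.
CDC27 had signals between 83.7 and 101 and was detected on no array, so no fold is given.

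Without the arrays numbered 2, the threshold of the methods called none of the 10, against 0.602% of all targets higher and 0.0396% lower. At an adjusted p under 0.05, 1 of the 10 was called higher, ANAPC1, and 3 lower, ANAPC5, CDC16 and ANAPC11, against 3.2% and 2.28% of all targets. The shares were larger among the 9884 targets detected on all 6 arrays, with 932 called higher and 759 lower. Of the transcripts called, ANAPC11 did not count as detected in control IPs and has no fold here. ANAPC1 had the largest difference of the 10 in this fit.

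**Figure D2:**
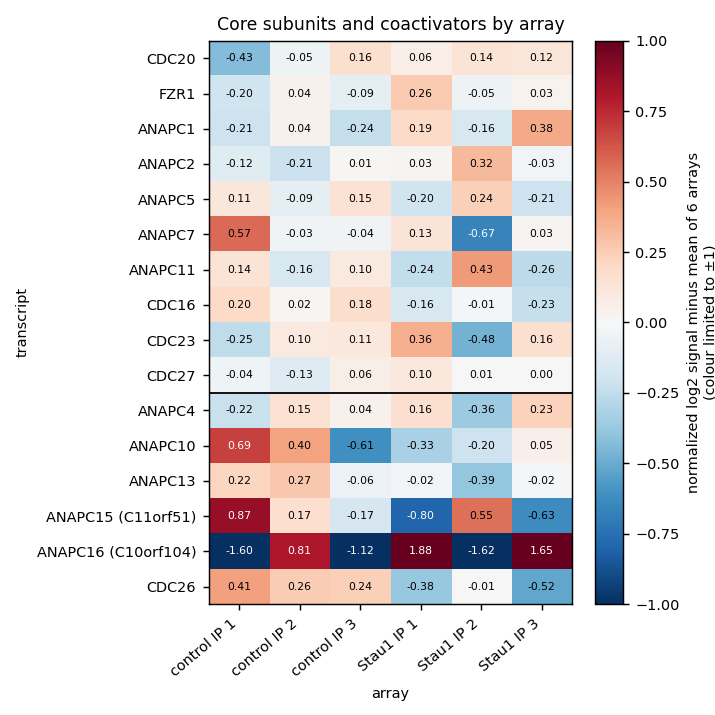
Normalized log2 signal of each transcript on each array minus its mean over the 6 arrays, red above and blue below that mean, with the 10 transcripts above the black line and the other core subunits below it. ANAPC16 spans the widest range, from -1.62 on Stau1 IP 2 to 1.88 on Stau1 IP 1, and the 10 transcripts stay between -0.67 and 0.57.

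The complex has 6 further core subunits on the array, under the symbols ANAPC4, ANAPC10, ANAPC13, CDC26, C11orf51 and C10orf104. RefSeq lists the last 2 as older names of ANAPC15 and ANAPC16. Over all 6 arrays, 0 of these 6 were higher and 1, CDC26, was lower at an unadjusted p under 0.05, against 3.88% and 5.01% of all targets and 9.98% and 12.2% of targets detected on all 6 arrays. Their median log2 difference was -0.30. At the fold of 2.5 none was called.

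CDC26, a small protein that stabilizes CDC16, had a signal of 5197, 5153 and 4585 in control IPs and of 2995, 3910 and 3003 in Stau1 IPs. As for CDC16, every Stau1 IP array lay below every control IP array, and Stau1 IP 2 was the nearest to the controls. The log2 difference was -0.61 (SE 0.14), with an interval from -0.96 to -0.25, an unadjusted limma p of 0.00637 and an adjusted p of 0.301. It was -0.78 (SE 0.09, adjusted p = 0.0282) without the arrays numbered 2. Over the 6 arrays, which share all their libraries between both transcripts, CDC26 and CDC16 had a Pearson correlation of 0.952. That was the highest of the 55 pairs among the core transcripts detected on all 6 arrays, followed by 0.941 for CDC23 and ANAPC4.

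ANAPC16, a subunit of the arm, was read under the name C10orf104 and had the widest spread. Its signal was 105, 896 and 160 on control IP 1, 2 and 3 and 1807, 113 and 1682 on Stau1 IP 1, 2 and 3, a 17.3-fold span of raw signal. Control IP 2 stood well above the other control IPs, and Stau1 IP 2 was near background with a detection p of 0.0646. As labelled, the normalized log2 level was 8.46 ± 1.28 (SD, n = 3) for the control IPs, against 9.73 ± 1.96 (SD, n = 3) for the Stau1 IPs. The difference of 1.28 (SE 1.15, adjusted p = 0.855) had an interval from -1.61 to 4.17. It ranked 15 of 37879 targets by log2 difference and did not pass the threshold, with an SD of the Stau1 IPs above the difference itself. Without the arrays numbered 2 the difference was 3.13 (SE 0.19, adjusted p = 0.0132), and the target ranked 7.

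ANAPC4, a platform subunit, had signals of 471, 786 and 616 in control IPs and of 739, 378 and 851 in Stau1 IPs. Its log2 difference of 0.02 (SE 0.19, adjusted p = 0.990) was -0.06 under median centring and 0.29 (adjusted p = 0.284) without the arrays numbered 2. ANAPC10, which helps to bind substrates, had signals of 942, 933 and 356 in control IPs and of 499, 425 and 730 in Stau1 IPs. The log2 difference was -0.32 (SE 0.35, adjusted p = 0.889), and -0.17 (SE 0.48, adjusted p = 0.941) without the arrays numbered 2. It turned on single control arrays, at -0.70 (adjusted p = 0.343) without control IP 3, the low one, and -0.05 without control IP 1.
ANAPC13, a small subunit of the arm, had signals of 8776, 9777 and 7025 in control IPs and of 6947, 5775 and 7769 in Stau1 IPs, with a log2 difference of -0.29 (SE 0.14, adjusted p = 0.657), and -0.10 (SE 0.10, adjusted p = 0.792) without the arrays numbered 2. ANAPC15, which takes part in releasing the checkpoint complex, had signals of 2539, 1776 and 1221 in control IPs and of 819, 2027 and 1016 in Stau1 IPs. Stau1 IP 1 and 3 were the lowest arrays, while Stau1 IP 2 lay above control IP 2 and 3. The log2 difference was -0.58 (SE 0.45, adjusted p = 0.821) over all 6 arrays and -1.07 (SE 0.37, adjusted p = 0.277) without the arrays numbered 2.

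**Figure D3:**
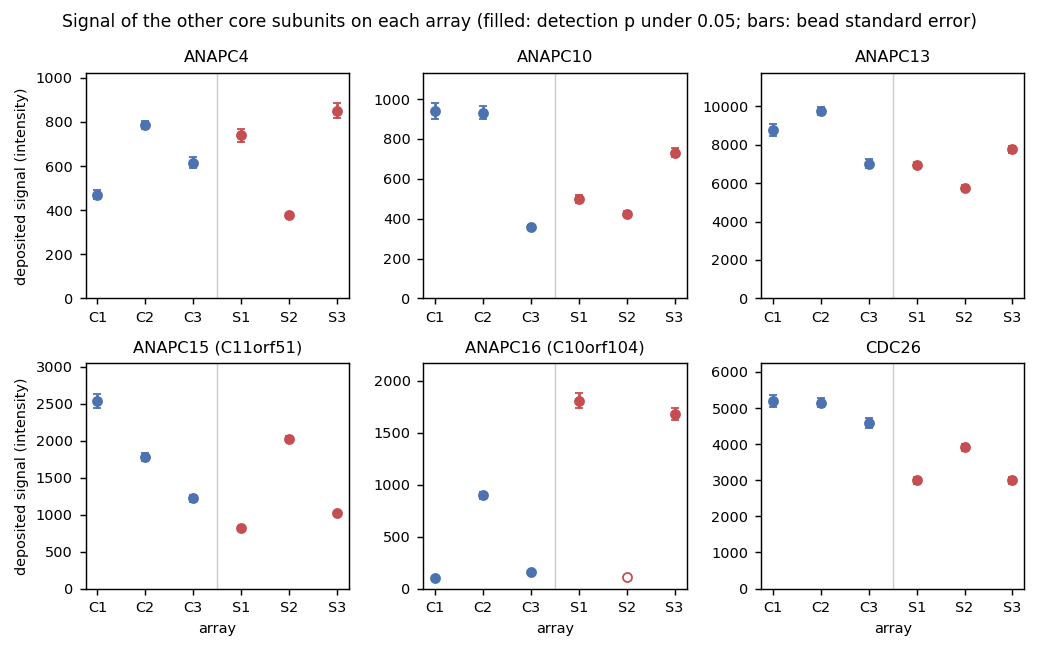
Deposited signal (intensity, linear axis from 0) of the 6 other core subunits on the same arrays, with symbols and bars as for the 10 transcripts. CDC26 lies between 4585 and 5197 in control IPs and between 2995 and 3910 in Stau1 IPs, and ANAPC16 is high on Stau1 IP 1, Stau1 IP 3 and control IP 2.

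**Figure D4:**
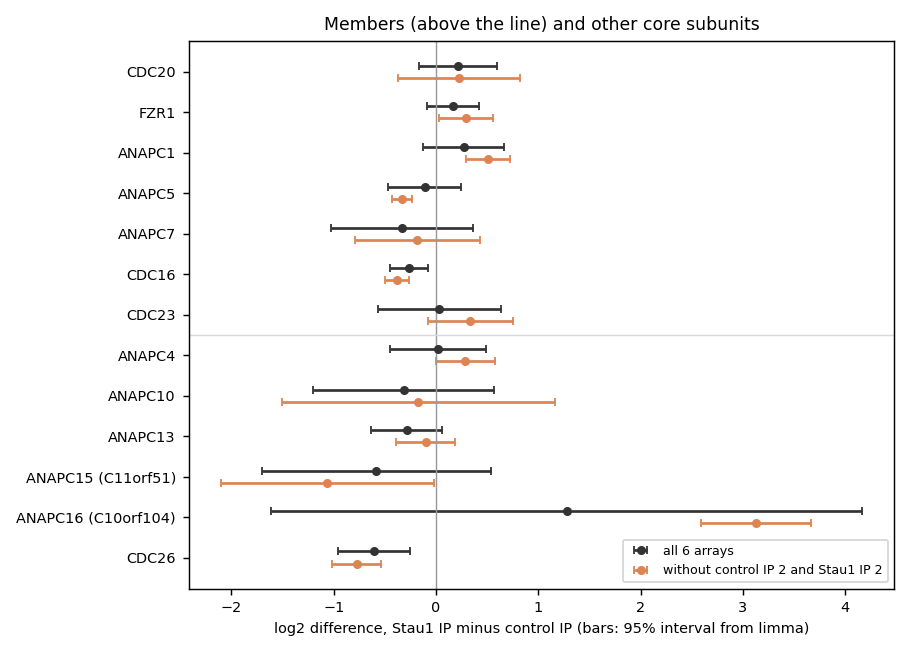
Log2 difference, Stau1 IP minus control IP, with its 95% interval from limma, for the 7 of the 10 transcripts detected in both groups (above the line) and the 6 other core subunits (below), over all 6 arrays (dark) and without the arrays numbered 2 (orange). Over all 6 arrays the intervals of CDC16 and CDC26 lie below 0 and the others include 0.

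The ubiquitin-conjugating partners of the complex were UBE2C, which starts the ubiquitin chain, UBE2S, which extends it, and UBE2D1, which can also start it. UBE2C had signals of 2396, 2577 and 1993 in control IPs and of 1548, 1887 and 1457 in Stau1 IPs, with all Stau1 IP arrays below the control IPs. Its log2 difference was -0.52 (SE 0.17, adjusted p = 0.453), and -0.67 (SE 0.14, adjusted p = 0.0922) without the arrays numbered 2. UBE2S and UBE2D1 were detected on no array. UBE2S, with signals between 75.7 and 116, went the other way, with a log2 difference of 0.15, an unadjusted limma p of 0.0380 and an adjusted p of 0.523. Without the arrays numbered 2 it was 0.16 (adjusted p = 0.483). At an unadjusted p under 0.05, 1 of the 3 partners was thus higher and 1 lower, against 3.88% and 5.01% of all targets. The higher one, UBE2S, lay at background, so its small difference is not read as a change.

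Of 10 inhibitors and spindle checkpoint genes, most of which hold CDC20 or FZR1 back, 9 were detected on all 6 arrays and FBXO43 on none. At an unadjusted p under 0.05, 0 were higher and 4 were lower, and the same 4 had their arrays apart. The list had a median log2 difference of -0.21, beside 0.00 for all targets. At that p, 3.88% of all targets were higher and 5.01% lower, and 9.98% and 12.2% of those detected on all 6 arrays. None of the list had an adjusted p under 0.05 over all 6 arrays, and 4 had one, all lower, without the arrays numbered 2. These were TTK, BUB1, BUB3 and MAD2L2. MAD2L2 was at -0.16 (adjusted p = 0.938) over all 6 arrays and at -0.51 (adjusted p = 0.0236) without the arrays numbered 2. In that fit 2.28% of all targets were lower, and 759 of the 9884 targets detected on all 6 arrays.
TTK, the kinase also called MPS1 that starts checkpoint signaling, had signals of 757, 848 and 945 in control IPs and of 438, 300 and 429 in Stau1 IPs. Its log2 difference was -1.01 (SE 0.10, adjusted p = 0.115), and -1.07 (SE 0.09, adjusted p = 0.0199) without the arrays numbered 2. BUB1, a kinetochore kinase, had signals of 1760, 1673 and 1885 against 1180, 748 and 1151, a difference of -0.77 (SE 0.13, adjusted p = 0.217), or -0.78 (SE 0.07, adjusted p = 0.0195) without those arrays. The differences of BUB3 and BUB1B, which sit with CDC20 and MAD2 in the checkpoint complex, were -0.31 (SE 0.09, adjusted p = 0.421) and -0.26 (SE 0.07, adjusted p = 0.374), or -0.44 (adjusted p = 0.0216) and -0.22 (adjusted p = 0.379) without those arrays.

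Of 24 substrates of the complex, all were detected on every array. At an unadjusted p under 0.05, 1 was higher and 6 were lower, against 3.88% and 5.01% of all targets and 9.98% and 12.2% of those detected on all 6 arrays. The median log2 difference was -0.18. None had an adjusted p under 0.05 over all 6 arrays. At an adjusted p under 0.05, 1 was higher and 8 were lower without the arrays numbered 2, against 3.2% and 2.28% of all targets. The 8 were HMMR, CKAP2, ANLN, NEK2, CCNB1, PTTG1, AURKB and TPX2. CCNB1 (-0.89, adjusted p = 0.0235), PTTG1 (-0.62, adjusted p = 0.0362), AURKB (-0.66, adjusted p = 0.0167) and TPX2 (-0.48, adjusted p = 0.0363) were not among those lower over all 6 arrays. Of the 9884 targets detected on all 6 arrays, 932 were higher and 759 lower in that fit. The median of the substrates was then -0.51.
TK1, the thymidine kinase of the salvage pathway, was the higher one, with signals of 2057, 3446 and 2599 in control IPs and of 5385, 3953 and 5759 in Stau1 IPs. Its log2 difference was 0.88 (SE 0.18, adjusted p = 0.257), or 1.16 (SE 0.10, adjusted p = 0.0200) without the arrays numbered 2, and all Stau1 IP arrays lay above all control IPs. HMMR, a protein of the mitotic spindle, had signals of 915, 793 and 940 against 440, 290 and 421, a difference of -1.08 (SE 0.14, adjusted p = 0.152), or -1.19 (SE 0.07, adjusted p = 0.0116) without those arrays. CKAP2, which binds spindle microtubules, had signals of 522, 514 and 588 against 309, 203 and 321, a difference of -0.87 (SE 0.12, adjusted p = 0.173), or -0.91 (SE 0.05, adjusted p = 0.0113) without them.
Of the substrates lower at an unadjusted p under 0.05 over all 6 arrays, 4 others remain. Their differences were -0.79 (adjusted p = 0.489) for NUSAP1, a spindle protein, and -0.52 (adjusted p = 0.282) for ANLN, the anillin of the contractile ring. They were -0.34 (adjusted p = 0.469) for the centrosomal kinase NEK2 and -0.20 (adjusted p = 0.231) for SKP2, a subunit of another ubiquitin ligase. Without the arrays numbered 2 they were -1.14 (adjusted p = 0.0620) for NUSAP1, -0.53 (adjusted p = 0.0221) for ANLN, -0.49 (adjusted p = 0.0304) for NEK2 and -0.22 (adjusted p = 0.135) for SKP2. On Stau1 IP 2, the array that stood apart, TTK, BUB1, BUB1B, HMMR, CKAP2, ANLN and SKP2 had the lowest deposited signal of the 6 arrays. BUB3, NUSAP1 and NEK2 did not. On the normalized scale TTK, BUB1B and SKP2 were lowest on Stau1 IP 3 instead. These genes were named for their p with the arrays as labelled, which favours genes where Stau1 IP 2 sides with its labelled group. Other genes of the lists had Stau1 IP 2 as their highest array, such as AURKB and FOXM1, or as their lowest, such as MAD2L1 and RRM2. Whether Stau1 IP 2 is labelled with its own group was not tested.

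**Figure D5:**
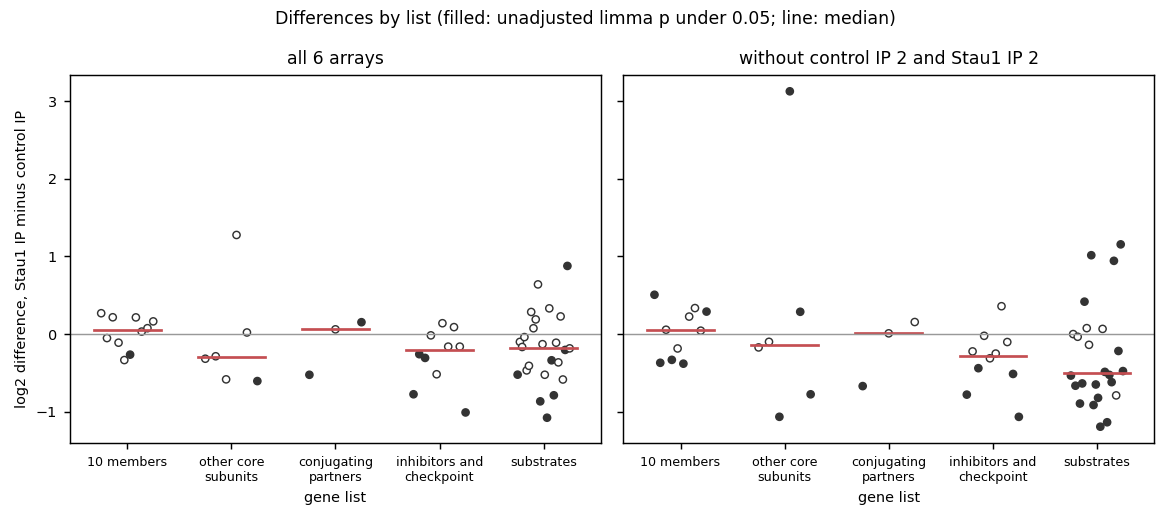
Log2 difference, Stau1 IP minus control IP, of every gene in each list over all 6 arrays (left) and without the arrays numbered 2 (right), filled where the unadjusted limma p was under 0.05, with the list median as a red line. The median of the 24 substrates is -0.18 on the left and -0.51 on the right, and that of the 10 transcripts is 0.05 in both. For the 7 of these 10 detected in both groups the median is 0.03 on the left and 0.23 on the right.

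The targets whose 6 normalized values were most like those of CDC20, among 9443 other targets with a symbol detected on all arrays, were NFKBIL2 (Pearson r = 0.989), UBE2M (0.989) and RAG1AP1 (0.983), and 35 targets exceeded 0.95. For FZR1 they were DACT3 (0.975), C1QTNF1 (0.974) and C20orf108 (0.971), of 13 over 0.95. For C10orf104, the target of ANAPC16, they were ACTG1 (0.999), C1orf69 (0.999) and RAB2B (0.999), of 420 over 0.95. With 6 arrays that are shared by all targets, these values describe only which arrays were high and low together, and for C10orf104 they follow the split of Stau1 IP 1, Stau1 IP 3 and control IP 2 from the rest.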

How the data were processed

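The 6 arrays were used as labelled, 3 control IPs and 3 Stau1 IPs, grouped by the sample titles. Per the file headers, the authors deposited for each target of the HumanWG-6 arrays a mean bead signal and its standard error, both linear intensities without normalization, how many beads were read, and a p-value of detection, with the probes of a target already combined. From these intensities a negative-control level was subtracted, estimated as the median over the 200 targets closest to 0.5 in detection p. A variance stabilizing transformation was fitted to the bead SD over 500 bins above the lowest 33.3% of signals. Each array was mapped on control IP 2 by a robust monotone spline with 10 knots. On every array the constant term stopped at its floor of 1, which makes the scale a shifted log2 on which dim targets change less than they did. The methods name this chain, and it was rebuilt with limma 3.58.1 and mgcv 1.9.3 under R 4.3.3. Plots were drawn with Python 3.11.15 and matplotlib 3.10.9.

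Groups were compared by lmFit and eBayes of limma over all 37879 targets, with Benjamini-Hochberg adjustment and the methods' fold of 2.5 at an unadjusted p under 0.05. For fits with fewer arrays, the values were normalized over all 6 first. No filter was applied in the main comparison. Steps were tested on simulated arrays. The members and lists were chosen with earlier results of these data known. The named genes were all members, the other core subunits, STAU1, the genes of each list with an unadjusted p under 0.05, and for CDC20, FZR1 and C10orf104 the 3 targets with the highest Pearson correlation. Further list genes were named for an adjusted p under 0.05 without the arrays numbered 2, or as examples of the level on Stau1 IP 2. Alternatives were other background corrections, normalizations, transformations, filters, tests and thresholds, the replicate number as a block, and leaving out arrays. Probe sequences and a genome were not used here, and coordinates are not given.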

Additional observations from a re-analysis of the deposited data

How the results depend on the processing

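The 10 transcripts gave 0 calls at the fold of 2.5 in either direction under every background correction, normalization, transformation, filter and test that was tried and without each array in turn, and 0 with a fold of 2 or an adjusted p. An unadjusted p alone called 1 lower. The share of all targets past that threshold, 0.00264% higher and 0% lower as reported, was 0.00792% and 0.0185% with normexp correction, 0.00792% higher with an eBayes trend, and 0.0264% and 0.0290% at a fold of 2. An adjusted p gave 0% and 0.00264%, and an unadjusted p 3.88% and 5.01%. Leaving out 1 array gave 0% to 0.275% higher and 0% to 0.0211% lower, the highest of both without Stau1 IP 2 and 0% higher without control IP 1 or Stau1 IP 3. Without control IP 2 the shares were 0.0264% and 0.00264%, and without control IP 3 they were 0.00792% for both. Leaving out both arrays numbered 2 gave 0.602% and 0.0396%. With the replicate number as a block (replicate block), 0% of targets were higher, and the adjusted p of CDC16 was 0.844 (unadjusted 0.0618). Deviations of same-numbered arrays from the means of their labelled groups had r = -0.45, -0.77 and -0.38. Negative values could also arise in paired arrays if those numbered 2 are exchanged, so these values cannot decide on pairing. The main comparison treated the arrays as unpaired. The log2 difference of CDC23 reversed to -0.051 under median centring and ran from -0.14 to 0.28 without single arrays, and that of ANAPC4 reversed to -0.057 and ran from -0.090 to 0.21. CDC16 kept its direction in all these fits, between -0.45 and -0.22, and its adjusted p ran from 0.0285 to 0.844. Its unadjusted p missed 0.05 with the block, with an eBayes trend and without control IP 1 or 3. The cause of these changes was not tested. FZR1, ANAPC2 and CDC27 lay too close to background for small differences to be read.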
